A study of Caenorhabditis elegans with 6 samples.

Results

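The genes described here are 39 genes of the hermaphrodite germline of Caenorhabditis elegans that act in germline stem cells, meiosis, P granules, oocytes and the maternal load of the egg. They were taken by name from a fixed list, and all 39 were found among the 46748 genes of the count table. Their values come from 6 libraries of total RNA of whole worms, 3 of wild type (strain N2) and 3 of strain VDL786, genotype crh-1(syb385), which the study calls a knockout of the circular RNA of crh-1. This RNA is made from the gene of the transcription factor CREB. Both groups were collected on day 1 of adulthood, fed E. coli OP50 at 20 °C and moved at the L4 larval stage to plates with 25 µM 5-fluorodeoxyuridine (FUdR), which inhibits DNA synthesis and prevents progeny. Only 1 strain carried the edited allele, so allele and strain background cannot be told apart.

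In the worm gonad, stem cells at the distal end divide under Notch signalling, leave that niche, pair and synapse their chromosomes in meiosis, and grow into oocytes toward the proximal end. Oocyte precursors share a common cytoplasm, and RNA-binding proteins keep maternal mRNAs silent there until the oocyte matures or the embryo divides. P granules are RNA and protein condensates at germ cell nuclei that are later segregated to the germ cell precursor of the embryo. Adult hermaphrodites make oocytes, having finished spermatogenesis before adulthood.

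Total counts ran from 38974777 to 47444165 per library, and protein-coding counts from 14188050 to 35075781. rRNA genes took 25.98% to 36.4% of the total in N2, and 34.5%, 58.5% and 22.9% in knockout replicates 1 to 3. The count of crh-1, which pools linear and circular transcripts and so does not check the genotype, was 20.6, 18.7 and 23.9 CPM in N2, against 17.9, 17.6 and 23.9 CPM in the knockout, in the order of replicates 1 to 3 that is kept below. CPM is the count scaled to a library size of 1e6 after TMM, a scaling by the bulk of the genes. Replicates are labelled independent, with no word on whether they were separate cultures, so p-values measure only the spread between these libraries. The 39 genes together took 0.962%, 1.20% and 1.37% of the protein-coding counts in N2, against 0.716%, 0.655% and 1.48% in the knockout. Counts of single genes ran from 176 to 78145 per library.

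The comparison of the groups asks whether these germline mRNAs differ when circ-crh-1 is missing. They did not differ detectably. No gene of the 39 passed the edgeR quasi-likelihood test at an adjusted p under 0.05, where 0% of all 14354 genes tested did, and none had an unadjusted p under 0.05, where 0.982% of all genes did. DESeq2 also called none of the 39, against 0.186% of all genes. The estimates nevertheless lay almost all on one side: 38 of the 39 genes had a negative log2 fold change (knockout minus wild type), against 47.7% of all genes tested. The median was -0.27, against 0.02 over all genes, and single values ran from -0.45 to 0.08. These genes vary together, so the 38 are not independent observations. The 95% intervals of the fold all included 1, with lower bounds from 0.275 to 0.646 and upper bounds from 1.21 to 2.22. In whole-worm RNA, fewer germ cells and less RNA per germ cell cannot be told apart.

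The groups overlapped in every one of the 39 genes. None had each knockout library below each wild-type library, against 1.56% of all genes, or each above, against 1.72%. Knockout replicates 1 and 2 were low for most of the genes and knockout replicate 3 was high. In the replicate 1 pair 36 of 39 genes were lower in knockout (48.8% of all genes), with a median log2 difference of -0.60. In the replicate 2 pair 37 of 39 were lower (49.4% of all genes), with a median of -0.91. In the replicate 3 pair 10 of 39 were lower (50.3% of all genes), and the median was 0.11.

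Deviations from the group means were shared by libraries of the same replicate number, so the replicate number was also entered as a block. The labels do not state this pairing, which was read from these same data. With this block 0 of the 39 genes were called, against 0.00697% of all genes, and 5 had an unadjusted p under 0.05, which is 12.8% beside 4.77% of all genes. These 5 were the PUF genes puf-11 (log2 fold change -0.69, SE 0.27) and puf-3 (-0.69, SE 0.28), the oocyte maturation genes oma-1 (-0.61, SE 0.26) and oma-2 (-0.59, SE 0.26), and the eggshell precursor gene gna-2 (-0.60, SE 0.26), all with an edgeR adjusted p of 0.771. The median of the 39 was -0.43 with the block and -0.27 without it. It depended on single libraries: in the unblocked fit it was -1.02 when knockout replicate 3 was left out, -0.0046 when knockout replicate 1 was, -0.04 when knockout replicate 2 was and 0.07 when wild-type replicate 3 was. Without knockout replicate 3, 29 of 39 genes had an edgeR unadjusted p under 0.05, where 19.3% of all genes did. With the block and without the replicate 3 pair, an alternative chosen after seeing the data, edgeR called 20 of the 39, all lower, and 8.36% of all genes. That fit kept only the replicate 1 and 2 pairs, so very few libraries measured the spread of each gene.

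**Figure D1:**
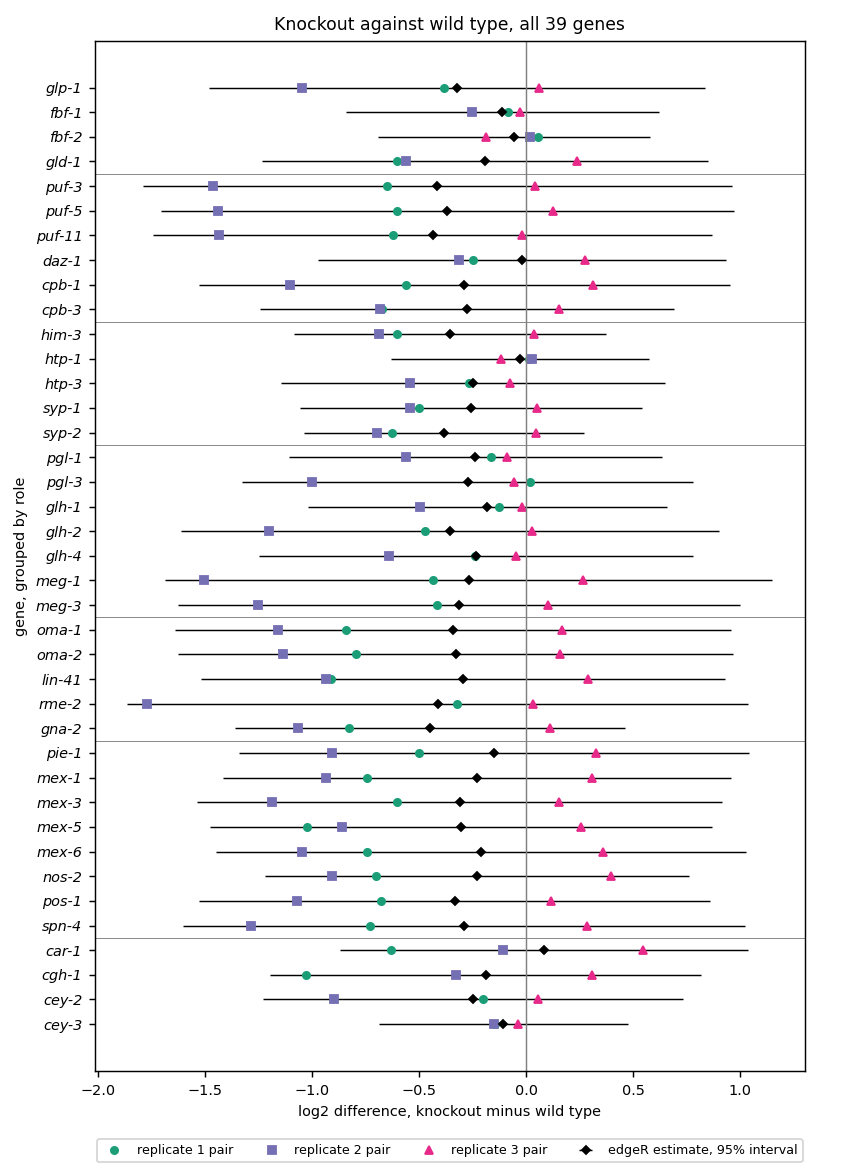
Log2 difference between knockout and wild type (horizontal axis) for each of the 39 genes (vertical axis, grouped by role). Diamonds with bars are edgeR estimates with 95% intervals, and circles, squares and triangles are the differences within the replicate 1, 2 and 3 pairs. Every interval crosses 0, and the triangles lie to the right of the circles and squares for most genes.

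Across the 6 libraries, the same libraries were high or low for most of the 39 genes. Knockout replicate 3 was the highest library for 28 genes, wild-type replicate 3 for 8, wild-type replicate 1 for 2 (syp-2 and cey-3) and knockout replicate 1 for 1 (htp-1). The lowest library was knockout replicate 1 for 20 genes and knockout replicate 2 for 17. These counts of highest and lowest libraries were not taken over all genes. Both replicate 3 libraries stood above the other 4 for 34 of 39 genes (87.2%), a pattern that 29.4% of all genes tested showed. For 29 genes (74.4%), knockout replicates 1 and 2 lay below the other 4 libraries, against 22.6% of all genes. The mean level of the 39 genes, as log2 CPM relative to the mean of each gene, was -0.24, 0.21 and 0.64 in wild type and -0.74, -0.64 and 0.77 in knockout. The replicate 3 libraries also had the smallest rRNA shares, 25.98% and 22.9%, and knockout replicate 2 the largest, 58.5%. The part of RNA composition in the pattern was not tested.

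**Figure D2:**
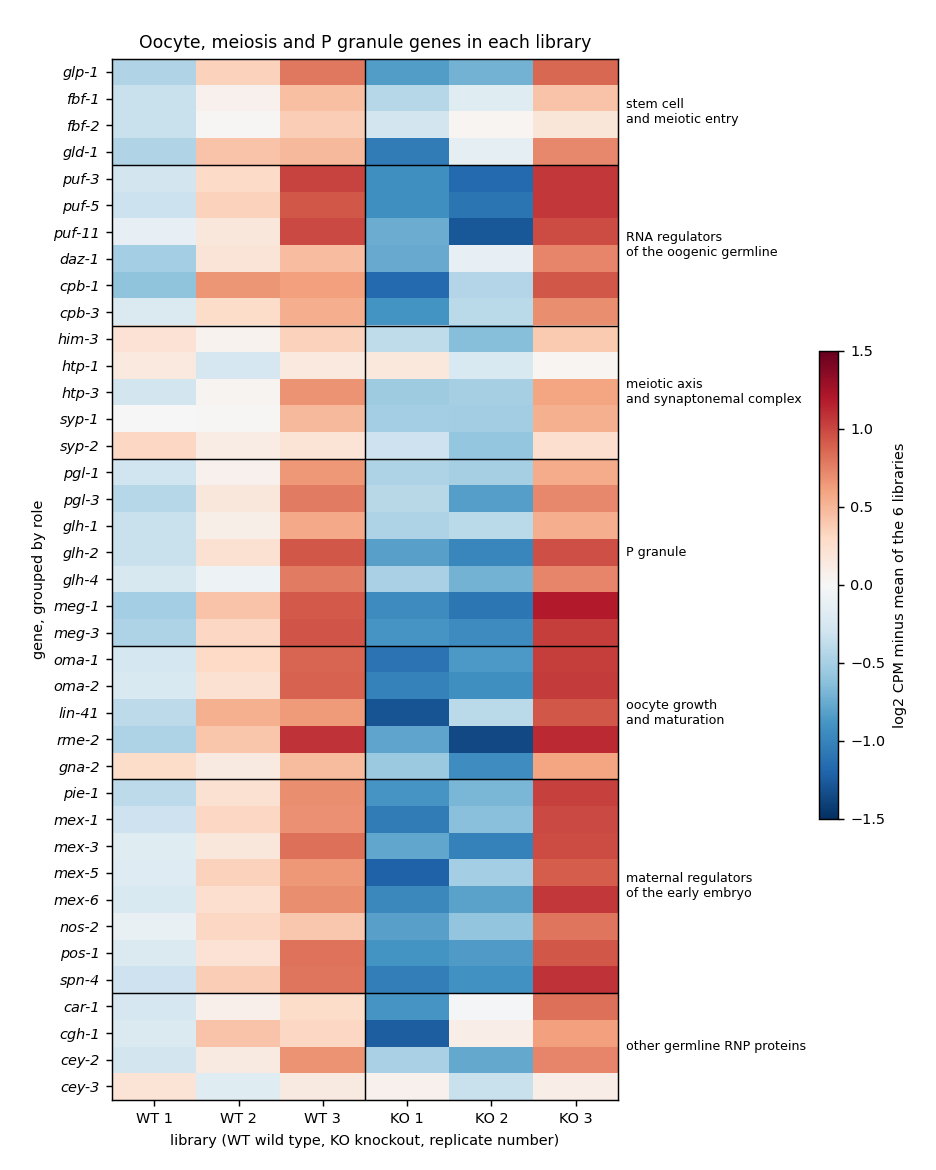
Log2 CPM of each of the 39 genes (rows, grouped by role) in each of the 6 libraries (columns), relative to the mean of that gene over all 6. Red is above and blue below the mean. The replicate 3 columns of both genotypes are red for nearly all genes, knockout replicates 1 and 2 are mostly blue, and htp-1, fbf-2 and cey-3 are pale throughout.

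Regulators of the stem cell pool and of meiotic entry included the receptor gene of the niche signal, a pair of repressors that keep stem cells dividing, and a repressor that drives entry into meiosis. Of these 4 genes, 4 had a negative log2 fold change and none was called. The Notch receptor gene glp-1 (WBGene00001609, chromosome III, 9092241 to 9099683, plus strand, WBcel235) had 96.0, 166 and 228 CPM in wild-type replicates 1 to 3 and 73.5, 80.5 and 238 CPM in knockout replicates 1 to 3. Its replicate 3 libraries were nearly level, while knockout replicates 1 and 2 lay below all wild-type libraries. The log2 fold change was -0.32 (SE 0.51), with an edgeR adjusted p of 0.996. gld-1, which encodes a KH-domain translational repressor (WBGene00001595, chromosome I, 7695661 to 7698154, plus strand), had 91.3, 167 and 175 CPM in wild-type replicates 1 to 3 and 60.0, 114 and 206 CPM in knockout replicates 1 to 3. Knockout replicate 2 lay between the wild-type libraries here, and the log2 fold change was -0.19 (SE 0.46), with an edgeR adjusted p of 0.996.

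The PUF-family repressor genes fbf-1 and fbf-2, near-identical neighbours on chromosome II, varied far less. fbf-1 had 25.8, 34.2 and 44.6 CPM in N2, against 24.3, 28.7 and 43.8 CPM in the knockout. fbf-2 had 34.2, 43.4 and 55.7 CPM in N2, against 35.6, 43.9 and 48.9 CPM in the knockout. In fbf-2 the knockout was higher than wild type in the replicate 1 and 2 pairs, by 0.05 and 0.02 on the log2 scale, and lower in the replicate 3 pair (-0.19), the opposite order to most of the other genes. Reads that match several places were not counted, so the levels of near-identical genes, puf-3 and puf-11 included, are uncertain.

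RNA regulators of the oogenic germline were among the genes that differed most between libraries. All 6 log2 fold changes were negative, their median was -0.33, and none was called. The PUF proteins encoded by puf-3, puf-5 and puf-11 act in oocytes as repressors of maternal mRNAs. puf-11 (WBGene00022257, chromosome IV, 6421592 to 6423500, plus strand) had 134, 164 and 291 CPM in wild-type replicates 1 to 3 and 87.4, 60.8 and 287 CPM in knockout replicates 1 to 3. puf-3 (WBGene00004239, chromosome IV, 13510306 to 13512162, minus strand) had 90.5, 134 and 222 CPM in wild-type replicates 1 to 3 and 57.7, 48.6 and 229 CPM in knockout replicates 1 to 3. Both replicate 3 libraries stood well above the rest in these genes, and the knockout libraries of replicates 1 and 2 were the lowest of all. Log2 fold changes were -0.44 (SE 0.57) for puf-11 and -0.41 (SE 0.60) for puf-3, both with an edgeR adjusted p of 0.996. puf-5, which had the highest level per length of this group, had 211, 335 and 504 CPM in N2, against 139, 123 and 550.1 CPM in the knockout. It followed the same order of libraries as puf-3.

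The CPEB homologs cpb-1 and cpb-3 and the DAZ homolog daz-1 complete that group. cpb-1, known for its role in spermatogenesis rather than in oocytes, had the lowest level per length of the 39 genes, with 6.48, 15.5 and 15.1 CPM in N2, against 4.38, 7.22 and 18.7 CPM in the knockout. cpb-3 had 58.5, 82.7 and 99.2 CPM in N2, against 36.6, 51.6 and 110.5 CPM in the knockout. In both, knockout replicate 1 was the lowest library and knockout replicate 3 the highest. daz-1, which is needed for oogenesis, ranged from 42.5 CPM in knockout replicate 1 to 120 CPM in knockout replicate 3, and its log2 fold change was -0.02 (SE 0.42).

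Genes of the meiotic chromosome axis and of the synaptonemal complex, the protein structure that holds paired homologs together, varied less between libraries. All 5 log2 fold changes were negative and their median was -0.26. syp-2, which encodes a component of the central region of the complex (WBGene00006376, chromosome V, 5536701 to 5537718, plus strand), had 67.6, 58.9 and 62.9 CPM in wild-type replicates 1 to 3 and 43.8, 36.3 and 65.0 CPM in knockout replicates 1 to 3. The wild-type libraries lay close together, knockout replicates 1 and 2 lay below them, and knockout replicate 3 lay among them. With 63.1 ± 4.38 CPM in N2 and 48.3 ± 14.9 CPM in the knockout (SD, n = 3 each), this gene had the smallest p of the 39, a log2 fold change of -0.38 (SE 0.29), an edgeR adjusted p of 0.996 and a 95% interval of the fold from 0.487 to 1.21. him-3, the gene of an axis protein of the HORMA-domain family (WBGene00001862, chromosome IV, 6977519 to 6978943, plus strand), had 89.1, 79.5 and 97.5 CPM in wild-type replicates 1 to 3 and 58.6, 49.3 and 100.1 CPM in knockout replicates 1 to 3. Here too knockout replicates 1 and 2 were the lowest, while knockout replicate 3 was just above the wild-type range, with a log2 fold change of -0.35 (SE 0.32) and an edgeR adjusted p of 0.996.

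Another HORMA-domain gene, htp-1, which had the highest level per length of the axis genes, was the steadiest of the 39. It had 122, 92.8 and 122 CPM in N2, against 123, 94.5 and 113 CPM in the knockout, a log2 fold change of -0.03 (SE 0.26), and a highest library only 1.33 times the lowest. htp-1 has a close paralog, htp-2, so its count is uncertain for the reason given for fbf-1 and fbf-2. The axis gene htp-3 ranged from 44.8 to 103 CPM and the central region gene syp-1 from 25.3 to 53.0 CPM. The exons of syp-1 overlap those of F13A7.14 on the same strand in the reference annotation, and it is the only 1 of the 39 with such an overlap.

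All 7 P granule genes had log2 fold changes below 0, and none was called. The PGL proteins form the scaffold of P granules, the GLH proteins are helicases related to Vasa, and MEG proteins are intrinsically disordered and control the granules in the embryo. pgl-1 (WBGene00003992, chromosome IV, 6973964 to 6977318, minus strand) had 220.5, 283 and 425 CPM in wild-type replicates 1 to 3 and 197, 192 and 399 CPM in knockout replicates 1 to 3. Knockout replicates 1 and 2 lay slightly below the lowest wild-type library and the replicate 3 libraries were the highest. Its log2 fold change was -0.24 (SE 0.38), with an edgeR adjusted p of 0.996. pgl-3 had 80.0, 121 and 185 CPM in N2, against 81.0, 60.7 and 178 CPM in the knockout. In the replicate 1 pair its levels were almost equal.

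Among the helicases, glh-1 had 237, 319 and 443 CPM in N2, against 218, 226 and 438 CPM in the knockout. Its paralog glh-2 (WBGene00001599, chromosome I, 6514021 to 6517507, plus strand) had 58.1, 86.1 and 141 CPM in N2, against 41.8, 37.4 and 143 CPM in the knockout. glh-2 thus differed more between libraries than glh-1, and its log2 fold change was -0.35 (SE 0.55), with an edgeR adjusted p of 0.996. glh-4 ranged from 48.3 to 135 CPM. The 2 members of the MEG family, meg-1 and meg-3, are the only genes of the 39 on the X chromosome. meg-1 had 28.6, 54.4 and 76.7 CPM in N2, against 21.1, 19.2 and 92.2 CPM in the knockout. meg-3 had 26.7, 45.5 and 70.7 CPM in N2, against 20.0, 19.1 and 75.8 CPM in the knockout. They showed the largest spread of the P granule genes, with knockout replicates 1 and 2 at about the same low level.

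Genes of oocyte growth and maturation lay below every wild-type library in knockout replicates 1 and 2. For lin-41 in knockout replicate 2 the gap was slight, with 53.0 CPM against 53.5 CPM in wild-type replicate 1. All 5 log2 fold changes were negative (median -0.34), all 5 genes were lower in knockout in the replicate 1 and 2 pairs, and all 5 were higher in knockout in the replicate 3 pair. rme-2, the gene of the yolk receptor that takes up vitellogenin into oocytes (WBGene00004374, chromosome IV, 5469995 to 5473175, plus strand), had 281, 519 and 823 CPM in wild-type replicates 1 to 3 and 225, 152 and 841 CPM in knockout replicates 1 to 3. It had the widest range of the 39, and in knockout replicate 2 it was lower than in any other library. The means were 541 ± 271 CPM in N2 and 406 ± 379 CPM in the knockout (SD, n = 3 each). Its log2 fold change was -0.41 (SE 0.64), with an edgeR adjusted p of 0.996. gna-2, an acetyltransferase gene that supplies the precursor of eggshell chitin (WBGene00001647, chromosome I, 7699543 to 7700962, plus strand), had 144, 131 and 165 CPM in wild-type replicates 1 to 3 and 81.1, 62.5 and 179 CPM in knockout replicates 1 to 3. Here the wild-type libraries were close together, knockout replicates 1 and 2 were lower, and the log2 fold change of -0.45 (SE 0.40), with an edgeR adjusted p of 0.996, was the most negative of the 39 in this fit. It was -1.02 when knockout replicate 3 was left out and -0.19 when knockout replicate 2 was. puf-11 was lower under upper-quartile scaling and with the block, and puf-3 in limma-voom. With any 1 library left out, another gene was lower than gna-2. This was rme-2 without wild-type replicate 1 or knockout replicate 3, and puf-11 without wild-type replicate 2. It was syp-2 without wild-type replicate 3 or knockout replicate 1, and cgh-1 without knockout replicate 2.

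The zinc finger genes oma-1 and oma-2, redundant regulators of oocyte maturation, had almost the same pattern across libraries. oma-1 had 44.3, 65.5 and 97.5 CPM in N2, against 24.8, 29.4 and 109 CPM in the knockout. oma-2 had 64.4, 87.7 and 139 CPM in N2, against 37.1, 39.9 and 155 CPM in the knockout. In both, knockout replicates 1 and 2 lay below every wild-type library and knockout replicate 3 lay above every one. lin-41, a TRIM-NHL gene that keeps growing oocytes from entering M phase early, ranged from 28.5 CPM in knockout replicate 1 to 133 CPM in knockout replicate 3.

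Maternal regulators of the early embryo are stored in the oocyte as mRNA and set up polarity and cell fates after fertilization. All 8 log2 fold changes were negative (median -0.26), and none was called. All 8 were lower in knockout in the replicate 1 and 2 pairs and all 8 were higher in the replicate 3 pair. pos-1, a zinc finger gene needed for germline fate (WBGene00004078, chromosome V, 8414085 to 8415255, plus strand), had 165, 222 and 337 CPM in wild-type replicates 1 to 3 and 103, 106 and 366 CPM in knockout replicates 1 to 3. Knockout replicates 1 and 2 were below the wild-type range and knockout replicate 3 above it. Its log2 fold change was -0.33 (SE 0.52), with an edgeR adjusted p of 0.996.

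The polarity gene mex-5 (WBGene00003230, chromosome IV, 13353723 to 13356089, plus strand) had 80.4, 117 and 145 CPM in wild-type replicates 1 to 3 and 39.6, 64.5 and 173 CPM in knockout replicates 1 to 3. Its paralog mex-6 had 91.4, 127 and 174 CPM in N2, against 54.7, 61.6 and 223 CPM in the knockout. Knockout replicate 1 was the lowest library in both. The log2 fold change of mex-5 was -0.30 (SE 0.51), with an edgeR adjusted p of 0.996. The other 5, namely pie-1, a repressor of transcription in germline blastomeres, the RNA-binding protein genes mex-1, mex-3 and spn-4, and the Nanos homolog nos-2, had log2 fold changes from -0.31 (mex-3) to -0.15 (pie-1). Each of them was highest in knockout replicate 3. For mex-3 the lowest library was knockout replicate 2, and for the other 4 it was knockout replicate 1.

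The remaining 4 genes encode proteins of germline ribonucleoprotein particles: the Y-box proteins of cey-2 and cey-3, the DDX6-type helicase of cgh-1 and the Sm-like protein of car-1. cey-2 (WBGene00000473, chromosome I, 5619569 to 5620668, plus strand) had 729, 969 and 1412 CPM in wild-type replicates 1 to 3 and 633, 521 and 1467 CPM in knockout replicates 1 to 3. cey-3 had 985, 749 and 938 CPM in N2, against 891, 675 and 913 CPM in the knockout. cey-2 thus followed the common order of libraries and cey-3 hardly varied. The log2 fold change of cey-2 was -0.25 (SE 0.43), with an edgeR adjusted p of 0.996.

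In cgh-1 and car-1 the knockout libraries of replicates 1 and 2 parted. cgh-1 (WBGene00000479, chromosome III, 7495388 to 7497832, minus strand) had 161, 250.2 and 232 CPM in wild-type replicates 1 to 3 and 78.8, 199 and 286 CPM in knockout replicates 1 to 3. Knockout replicate 1 was far below every other library, and knockout replicate 2 lay inside the wild-type range. Its log2 fold change was -0.19 (SE 0.44), with an edgeR adjusted p of 0.996. car-1, named here because its estimate was the only positive 1 of the 39, had 96.4, 122 and 139.9 CPM in N2, against 62.3, 113 and 204 CPM in the knockout and a log2 fold change of 0.08 (SE 0.42). The sign of car-1 was negative on library totals, in limma-voom and with the replicate block, while fbf-2, daz-1 and htp-1 turned positive under upper-quartile scaling, so that 35 to 39 of the 39 genes were negative under these alternatives.

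**Figure D3:**
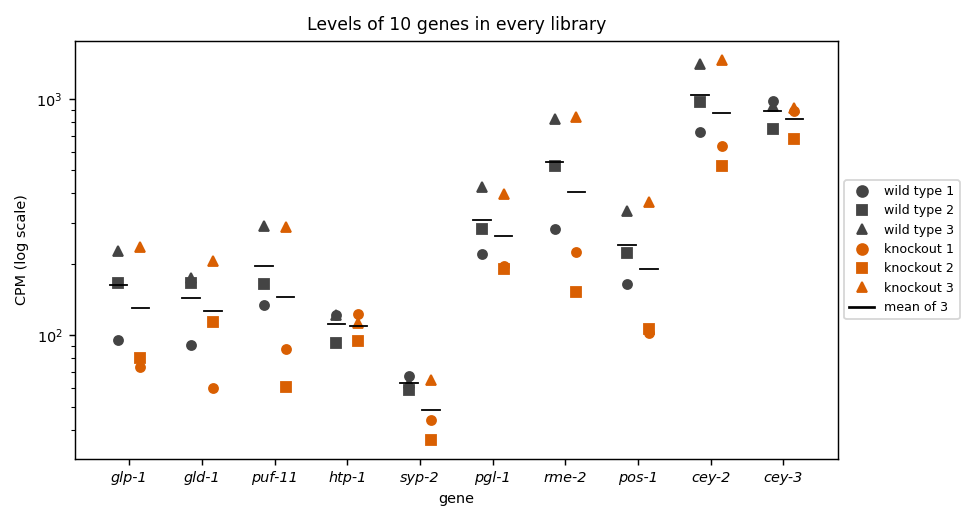
CPM on a log scale (vertical axis) of 10 of the genes (horizontal axis) in every library. Dark grey symbols are wild type, orange symbols knockout, the symbol shape gives the replicate number and bars are means of 3. The knockout symbols of rme-2 run from 152 to 841 CPM, below and above the wild-type symbols, while those of htp-1 and cey-3 stay close together.

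Relative to the common level of the 39 genes, single genes departed in several libraries. The largest departures were those of the steady genes htp-1 and cey-3. Steady genes stand above the common level where it is low and below it where it is high. htp-1 stood 0.90 above it on the log2 scale in knockout replicate 1 and at -0.74 in knockout replicate 3, and cey-3 at 0.81 and -0.67. fbf-2 stood at 0.47, 0.67 and -0.58 in knockout replicates 1 to 3. Other genes differed between the 2 low knockout libraries. Knockout replicate 2 had the lowest protein-coding count and a TMM factor of 0.626. There cgh-1 stood 0.73 above the common level, car-1 0.61, daz-1 0.51 and gld-1 0.50. In knockout replicate 1 they stood at -0.50, -0.15, -0.01 and -0.31. In contrast, rme-2 (-0.71), puf-11 (-0.63) and puf-3 (-0.53) stood below it in knockout replicate 2, and at -0.05, 0.00 and -0.18 in knockout replicate 1. The oocyte growth and maturation genes did not all go this way. In knockout replicate 2, gna-2 (-0.29), oma-2 (-0.28) and oma-1 (-0.22) were also below the common level, but lin-41 was at 0.23. Of the 39 genes, 21 were higher in knockout replicate 2 than in knockout replicate 1, a count not taken over all genes. These departures are a description of single libraries and were not tested.

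The spread between libraries is described here by role, with no test. Over the 6 libraries, the highest CPM divided by the lowest had a median of 3.43 in the 39 genes and of 2.25 in all genes tested that were above 0 in every library. It exceeded 2 in 34 genes and 4 in 13. By role the median was 4.42 for oocyte growth and maturation, 4.36 for RNA regulators of the oogenic germline, 4.03 for maternal regulators, 3.05 for P granule genes, 3.05 for ribonucleoprotein genes, 2.53 for stem cell and meiotic entry genes and 2.03 for the meiotic axis and synaptonemal complex. The largest ratio was 5.53 for rme-2 and the smallest 1.33 for htp-1, followed by 1.46 for cey-3 and 1.63 for fbf-2. Among the 39, the lowest ratio of the oocyte growth and maturation genes was 2.86, for gna-2. The highest of the meiotic axis and synaptonemal complex genes was 2.31, for htp-3. This split did not extend to all of the other germline genes described below. There the meiotic gene msh-5 ran from 30.35 to 94.5 CPM, and the maternal gene par-5 only from 496 to 729 CPM. The SE of the log2 fold change, with a median of 0.46, ran from 0.26 for cey-3 to 0.64 for rme-2.

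**Figure D4:**
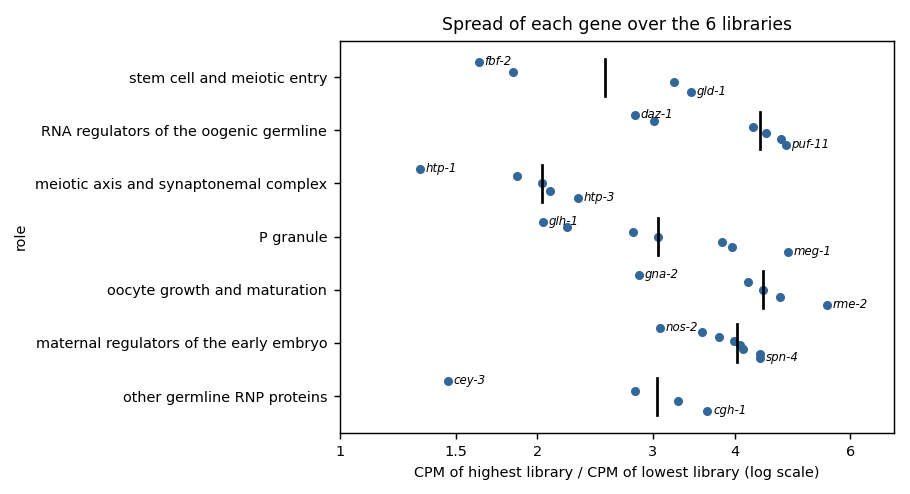
Ratio of the highest to the lowest CPM over the 6 libraries (horizontal axis, log scale) for each gene (points), by role (vertical axis), with the median of each role as a bar. The meiotic axis and synaptonemal complex genes lie between 1.33 and 2.31, and the maternal regulators between 3.08 and 4.37.

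Levels between genes were compared per length, as RPKM, the CPM divided by exon length in kilobases. cey-2 and cey-3 stood far above the rest, with means over the 6 libraries of 946 and 837 RPKM. The order between these genes changed with the library, since cey-2 had 722, 959 and 1399 RPKM in N2, against 627, 516 and 1452 RPKM in the knockout, and cey-3 959.8, 729.6 and 914 RPKM in N2, against 869, 658 and 890.3 RPKM in the knockout. Next came pos-1 (194), spn-4 (183), rme-2 (163) and puf-5 (155), whose ranges over the libraries overlapped, then glh-1 (122) and pgl-1 (114). The median of the 39 was 56.4 RPKM. At the low end were lin-41 (16.8), meg-3 (15.4), fbf-1 (15.1) and cpb-1 (5.29 RPKM). The ranges of lin-41, meg-3 and fbf-1 overlapped, while that of cpb-1 lay below that of fbf-1.

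Within pairs of related genes, the share taken by each was steady in some and not in others. The share of oma-1 in the summed RPKM of oma-1 and oma-2 was 37.3%, 39.2% and 37.7% in wild type and 36.6%, 38.9% and 37.9% in knockout. That of puf-3 in puf-3 and puf-11 was 40.1%, 44.8% and 43.1% in wild type and 39.6%, 44.2% and 44.1% in knockout. meg-1 took 55.7%, 58.5% and 56.0% in wild type and 55.5%, 54.1% and 58.9% in knockout of meg-1 and meg-3. These shares stayed within 2.64, 5.14 and 4.76 percentage points over the 6 libraries although the levels themselves varied several-fold. The share of cey-2 in cey-2 and cey-3, in contrast, was 42.9%, 56.8% and 60.5% in wild type and 41.9%, 43.95% and 62.0% in knockout, a range of 20.1 points, with the replicate 3 libraries and wild-type replicate 2 on the high side. For glh-1 in glh-1 and glh-2 it was 83.3%, 81.9% and 79.4% in wild type and 86.4%, 88.05% and 78.9% in knockout, highest in knockout replicates 1 and 2. fbf-1, mex-5, pgl-1 and cpb-1 had ranges of 7.81, 9.14, 7.11 and 7.07 points against fbf-2, mex-6, pgl-3 and cpb-3. In all 9 pairs the wild-type and knockout shares overlapped.

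Other genes of the same processes, 81 genes taken by name in 4 lists, were tested in the same fit. None passed the edgeR test at an adjusted p under 0.05 and none had an unadjusted p under 0.05. DESeq2 called none either. In 73 of the 81 the log2 fold change was negative, and the median was -0.20, against 0.02 over all genes. Of 34 further meiotic chromosome genes 28 were negative (median -0.18), of 11 P granule and perinuclear genes 11 (-0.18), of 15 germline RNA regulators 14 (-0.26) and of 21 oocyte and maternal genes 20 (-0.23). Those with the smallest p were the CPEB homolog cpb-2, the synapsis and crossover genes zhp-1 and zhp-3, and the MutS homolog him-14. cpb-2 had 0.619, 1.17 and 0.280 CPM in N2, against 0.466, 0.0820 and 0.169 CPM in the knockout and a log2 fold change of -1.46 (SE 0.72), zhp-1 -0.38 (SE 0.30), him-14 -0.37 (SE 0.35) and zhp-3 -0.32 (SE 0.30), all with an edgeR adjusted p of 0.996. zhp-1 had 19.2, 17.2 and 18.02 CPM in N2, against 13.7, 9.31 and 18.9 CPM in the knockout, with the low values in knockout replicates 1 and 2 as for syp-2. cpb-2, a gene of few counts, was highest in wild-type replicate 2 and low in both replicate 3 libraries.

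Markers of other cells were set beside the level of the 39 genes. Sperm genes, of which 18 of 23 were tested, did not follow it: their level was 0.67, 0.72 and -0.09 in wild type and 0.45, -0.48 and -1.27 in knockout, with 18 of 18 log2 fold changes below 0 (median -0.76) and none called. Their summed level was 45.9 to 82.2 CPM in wild type and 29.5 to 60.8 CPM in knockout, and knockout replicate 3, where the 39 genes were highest, had the lowest value. Of 8 markers of zygotic transcription in the early embryo 5 were tested. Their summed level was 30.3 and 22.0 CPM in wild-type and knockout replicates 2, and 2.40 to 5.63 CPM in the other 4 libraries, a different order from that of the 39 genes. end-1, tbx-37 and tbx-38 had too few counts to be tested.

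Genes of the somatic gonad, with 8 of 9 tested, kept a mean level between -0.07 and 0.10 in all libraries, with 4 of 8 log2 fold changes below 0 (median 0.02). Their sum was not as flat. It was lowest in knockout replicate 1 (524 CPM) and highest in the replicate 3 libraries (wild type 784, knockout 702), as for the 39 genes. Between these lay wild-type replicate 1 (571), knockout replicate 2 (601) and wild-type replicate 2 (646). Body wall muscle markers, 10 of 10 tested, were at -0.19, 0.02 and -0.12 in wild type and 0.21, 0.76 and -0.67 in knockout, with 0 of 10 log2 fold changes below 0 (median 0.30). Neuron markers, 12 of 12 tested, were at 0.06, 0.06 and -0.30 in wild type and 0.22, 0.46 and -0.50 in knockout, with 1 of 12 below 0 (median 0.22). None of either list was called. Both were highest in knockout replicate 2 and lowest in knockout replicate 3, where the level of the 39 genes was -0.64 and 0.77. The lowest level of the 39 genes, -0.74, was in knockout replicate 1. Hypodermis markers, 8 of 10 tested, summed to 1206 to 1526 CPM in wild type and 899 to 2143 CPM in knockout, with 3 of 8 log2 fold changes below 0 (median 0.20). Intestine markers, 10 of 10 tested, summed to 8609 to 14157 CPM in wild type and 12628 to 13998 CPM in knockout, with 0 of 10 below 0 (median 0.25). Body wall muscle summed to 1596 to 1749.8 CPM and 1113 to 3256 CPM, and neurons to 129 to 145 CPM and 114 to 175 CPM. The part of the somatic share of the RNA in the germline levels was not tested.

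**Figure D5:**
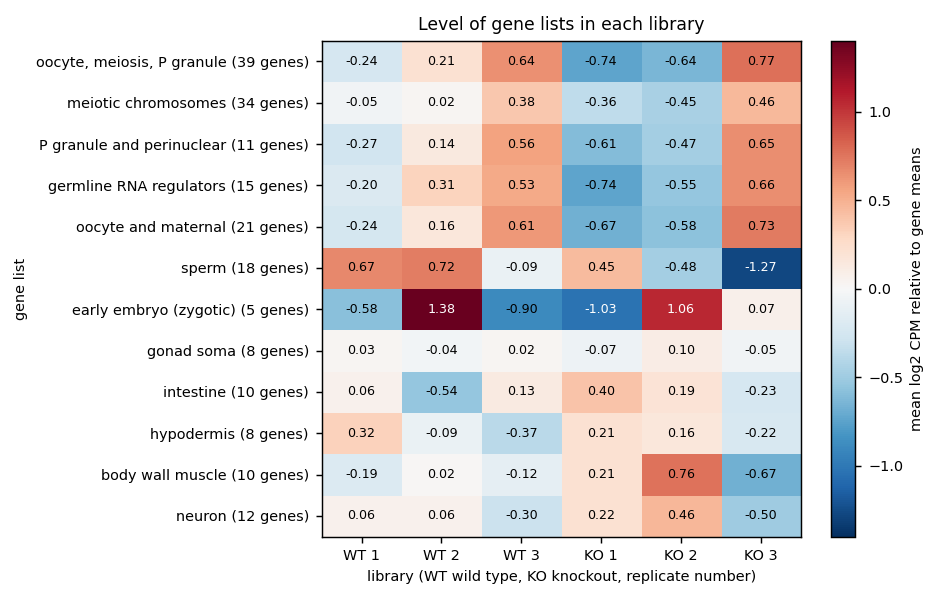
Mean log2 CPM of each gene list relative to the gene means (rows, with the number of genes tested) in each library (columns), with values printed. The 39 genes and the 4 lists of other germline genes are highest in the replicate 3 libraries and lowest in knockout replicates 1 and 2, and muscle and neuron markers are lowest in knockout replicate 3.

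In the genome, the 39 genes lay on all 6 chromosomes but unevenly. Chromosome I held 12 (30.8%, against 16.6% of tested protein-coding genes), IV 8, II 7, V 6, III 4 and X 2 (5.13%, against 14.3%). On chromosome I, gld-1 and gna-2 lie 1388 bp apart on the same strand. The log2 fold changes of these neighbours were -0.19 and -0.45, and gna-2 was lowest in knockout replicate 2 whereas gld-1 was lowest in knockout replicate 1. On chromosome IV, pgl-1 and him-3 lie 200 bp apart and point away from each other. fbf-1 and fbf-2 lie 7853 bp apart on chromosome II.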

How the data were processed

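The authors deposited unnormalized read counts of genes. Read pairs were assigned to the exons of each gene by featureCounts 1.5.0, in its reversely stranded mode and on Ensembl's WBcel235 annotation, per the file headers, and no option for reads with several hits was set. HISAT2 2.1.0 was used per the submitters' processing notes. Gene length, a column of another kind in the deposited table, is the summed exon length. The 2 groups of 3 libraries were made with a stranded total RNA kit, per the labels' protocols. Of 46748 genes, 46449 matched the Ensembl 115 annotation of the same build, which supplied names.

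The quasi-likelihood test of edgeR 4.0.16 (R 4.3.3) was run on the counts after filterByExpr (count minimum 10, total minimum 15) and TMM scaling (robust dispersions, no covariates) over 14354 genes, with Benjamini-Hochberg adjustment over all of them and a threshold of 0.05. The SE was taken as the absolute log2 fold change divided by the root of its F. CPM and RPKM use TMM-scaled library sizes, and list levels are means of log2 CPM with a prior count of 2. Alternatives were other scalings and filters, DESeq2 1.42.0, limma-voom (limma 3.58.1), protein-coding genes only, the replicate number as a block, and each library left out. The fit was tested on simulated counts.

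Deviations from the group means correlated with 0.648, 0.481 and 0.579 between libraries of the same replicate number, and with -0.527 to 0.019 otherwise. Deviations cancel out within a group for each gene, so positive values for the same number make the others negative on average. The contrast is therefore partly built in. The numbers were taken to pair the libraries, which the labels do not state. Results with the block rest on this pairing, which was read from the same data.

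The genes, lists and tests were chosen with earlier results of these data known. The log2 fold change is given for the 2 genes of each of the 7 roles with the smallest p, and values in every library for these, for 9 related pairs and for the gene of each role with the highest RPKM. Other genes are given by ranges, and car-1, daz-1, htp-1, mex-3, pie-1, oma-1 and oma-2 were given with a log2 fold change after their values were seen. Promoter and protein sequences were not used here.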

Additional observations from a re-analysis of the deposited data

How the results depend on the processing

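None of the 39 genes was called under 18 of the 19 alternatives. The exception, with the replicate block and without the replicate 3 pair (chosen after seeing the data), called 20 of the 39, 21 of the other germline genes and 1235 genes in all. Among all genes, 5 were called on library totals, 31 by DESeq2, 34 by DESeq2 with the replicate block, 1 by edgeR with the replicate block, and 160 and 21 with the block and without the replicate 1 or replicate 2 pair. DESeq2 with the block and the blocked fits without a pair were chosen after seeing the data. The blocked fits without a pair rest on very few libraries. The replicate block over all 3 pairs changed no call among the 39. Leaving out 1 library at a time, the count of negative log2 fold changes ran from 11 (without wild-type replicate 3) to 39, and their median from -1.02 to 0.075. On library totals the median of all genes shifted to -0.21 and that of the 39 to -0.40, and under upper-quartile scaling to 0.11 and -0.25.

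For the 18 genes named by rule, 327 of 341 values under alternatives kept their direction. The 14 exceptions lay in 11 genes. The ranges over the 6 leave-one-out fits were -1.08 to 0.055 for glp-1, -0.72 to 0.15 for gld-1, -1.41 to 0.017 for puf-11, -1.48 to 0.053 for puf-3, -1.26 to 0.10 for glh-2 and -0.67 to 0.11 for pgl-1. They were -1.52 to 0.087 for rme-2, -1.20 to 0.044 for pos-1, -1.12 to 0.059 for mex-5, -0.61 to 0.18 for cgh-1 and -0.84 to 0.097 for cey-2. The other 7 kept their sign but moved by over 1.5 times: -1.02 to -0.19 for gna-2, -0.65 to -0.22 for syp-2, -0.71 to -0.17 for him-3, -2.35 to -0.85 for cpb-2, -0.65 to -0.16 for zhp-1, -0.80 to -0.13 for him-14 and -0.62 to -0.13 for zhp-3. The most negative value came without knockout replicate 3 and the least negative without knockout replicate 2, except for cpb-2 (without knockout replicate 1 and wild-type replicate 2). Of the genes named after their values were seen, the sign turned in 10 of 19 alternatives for daz-1, 8 for car-1, 5 for htp-1, 3 for pie-1 and 2 each for mex-3, oma-1 and oma-2. cgh-1 was also at 0.012 with the replicate block and without the replicate 1 pair. The cause was not tested. In the unblocked fit, with 3 libraries a group and a median SE of 0.46, the 95% interval of the fold included 1 for all 39 genes. The bounds given above are the extremes over the genes in that fit, not a limit of detection for each gene. For puf-3, puf-11, oma-1, oma-2 and gna-2 the SE was smaller with the replicate block.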
